A study of Mus musculus with 12 samples.

Results

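Transcripts of 10 mouse genes that mark mast cells (Cpa3, Cma1, Mcpt4, Tpsb2, Tpsab1, Kit, Ms4a2, Fcer1a, Hdc and Gata2) were examined in a table of 57180 genes. The genes were taken by symbol, and all 10 had an entry. The 4 groups held 3 libraries each, and levels were given as TPM, a transcript's part of its library scaled for its length. For skin, CX3CR1+ cells of the back were profiled by smart-seq, which amplifies cDNA from few cells. These mice carried Cx3cr1-creER:Ai9, an inducible Cre driven by Cx3cr1 together with a fluorescent reporter, in the CCl4 group and in the vehicle group alike, so the reporter also marks offspring of cells that once expressed Cx3cr1. Liver libraries were bulk RNA-seq from C57 mice given CCl4, a hepatotoxic solvent, or vehicle. The labels call this material liver, while the design text speaks of hepatocytes. Dose, interval after treatment, age, sex, induction of the Cre and sorting gates are not stated in the labels. The design text calls the replicates biological.

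Mast cells are resident immune cells that lie along vessels and nerves and are abundant in the dermis. They survive on stem cell factor, the ligand of the receptor KIT, and bind IgE through the high-affinity receptor FcεRI. When that receptor is crosslinked they release granules that hold histamine, heparin and proteases, and they are known for their part in itch and allergy. Mouse skin mast cells are mostly of the connective tissue type, which stores chymases, tryptases and carboxypeptidase A3, while mucosal mast cells store the chymases encoded by Mcpt1 and Mcpt2. Several of the 10 genes are used by other cells as well: Kit by melanocytes and blood progenitors, Hdc by basophils and neutrophils, Gata2 by endothelial cells and basophils, and Fcer1a, Ms4a2 and Cpa3 by basophils.

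The skin libraries were mixed in cell content, which bears on every value below. The 10 macrophage and monocyte markers summed to 8137 to 21559 TPM after vehicle, to 6120 and 7862 TPM in CCl4 replicates 1 and 2, and to 221 TPM in CCl4 replicate 3. In that last library Mrc1 was listed at 0 and Csf1r stood at 2.12 TPM. Cx3cr1, the gene that names the population, was at 3.91, 0.27 and 0.91 TPM after vehicle and 5.28, 0 and 0.28 TPM after CCl4, so its transcript was low or absent in libraries of either group. Markers of T and natural killer cells (895 to 7233 TPM), keratinocytes (396 to 3216 TPM) and fibroblasts (359 to 6881 TPM) were present in all 6. Fibroblast sums were 2168, 6881 and 1619 TPM after vehicle and 454, 4377 and 359 TPM after CCl4, so that in the CCl4 group they were high in replicate 2 and low in the others. Langerhans and dendritic cell markers summed to 618 to 2279 TPM after vehicle and to 1215, 249 and 118 TPM after CCl4. The libraries numbered 1 listed 28870 and 28357 genes above 0, against 21328 to 23494 in the other 4. CCl4 replicate 2 held the highest sums of endothelial (227 TPM, against 7.04 to 12.5 TPM elsewhere) and Schwann cell markers (464 TPM, against 21.6 to 71.9 TPM). In bulk libraries, fewer cells of a type and less RNA per cell cannot be told apart.

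**Figure D1:**
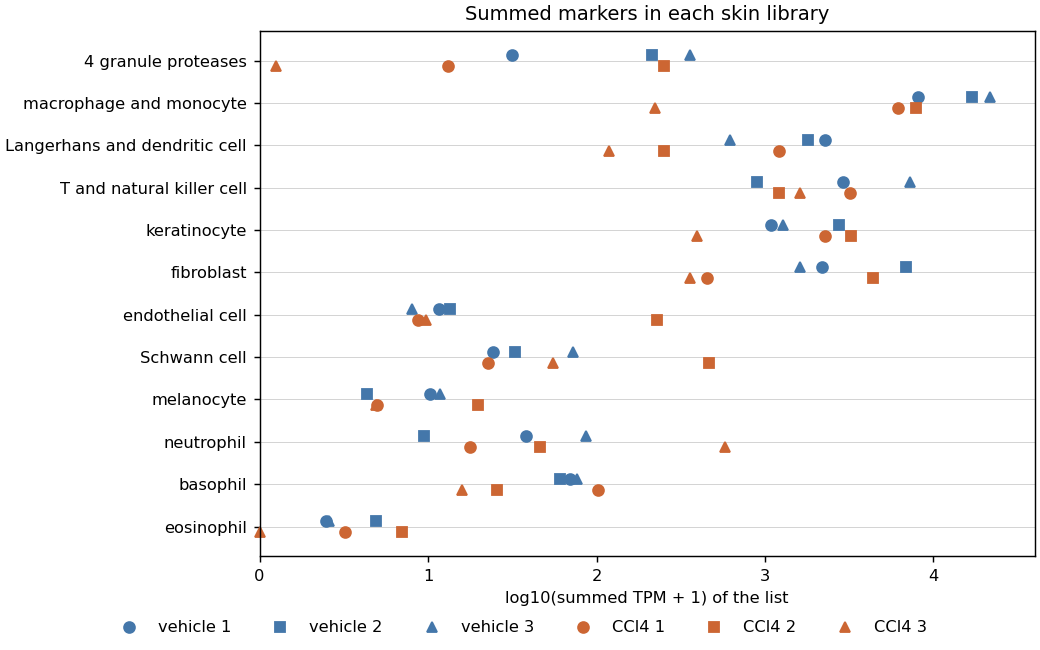
Summed TPM of the cell type marker lists, on a log10(sum + 1) axis, in each skin library, with blue for vehicle, orange for CCl4 and the symbol giving the replicate. CCl4 replicate 3 has the lowest sums of the 4 granule proteases (0.25 TPM) and of macrophage and monocyte markers (221 TPM), and CCl4 replicate 2 the highest sums of endothelial and Schwann cell markers.

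Granule protease transcripts ranged more widely within a group than the group means differed. Cpa3, Cma1, Mcpt4 and Tpsb2 were high in vehicle replicates 2 and 3 and in CCl4 replicate 2, low in both libraries numbered 1, and at or near 0 in CCl4 replicate 3. Their summed level was 30.6, 211 and 359 TPM after vehicle and 12.1, 252 and 0.25 TPM after CCl4. All of them had lower CCl4 than vehicle means, with differences of -1.66 to -2.85 on the log2(TPM + 1) scale, and none passed the test. The upstream regions of 3 of these genes are shown because their transcripts shared this pattern of high and low libraries. The region of Kit, whose transcript did not, is set beside them. Sequences are from RefSeq on GRCm38.p6, 250 bases before the start site, read 5′ to 3′ on the gene's strand, with GATAA (or TTATC, the same motif on the other strand), the core bound by GATA factors such as GATA2, in capitals.
Cpa3, chr3:20242182-20242431, minus strand: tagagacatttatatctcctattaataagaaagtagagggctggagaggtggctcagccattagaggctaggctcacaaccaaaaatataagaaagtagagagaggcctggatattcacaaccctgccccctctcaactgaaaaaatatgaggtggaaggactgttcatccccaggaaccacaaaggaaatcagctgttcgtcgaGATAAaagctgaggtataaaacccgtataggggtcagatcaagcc
Mcpt4, chr14:56062311-56062560, minus strand: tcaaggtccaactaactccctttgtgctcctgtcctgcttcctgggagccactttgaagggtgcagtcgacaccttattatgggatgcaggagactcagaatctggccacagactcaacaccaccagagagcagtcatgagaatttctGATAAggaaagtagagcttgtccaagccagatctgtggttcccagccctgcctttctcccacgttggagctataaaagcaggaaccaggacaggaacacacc
Cma1, chr14:55944676-55944925, minus strand: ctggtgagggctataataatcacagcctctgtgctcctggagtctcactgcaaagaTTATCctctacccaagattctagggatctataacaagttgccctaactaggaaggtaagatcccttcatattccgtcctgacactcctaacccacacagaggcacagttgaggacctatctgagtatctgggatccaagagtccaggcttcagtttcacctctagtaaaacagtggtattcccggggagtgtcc
Kit, chr5:75574737-75574986, plus strand: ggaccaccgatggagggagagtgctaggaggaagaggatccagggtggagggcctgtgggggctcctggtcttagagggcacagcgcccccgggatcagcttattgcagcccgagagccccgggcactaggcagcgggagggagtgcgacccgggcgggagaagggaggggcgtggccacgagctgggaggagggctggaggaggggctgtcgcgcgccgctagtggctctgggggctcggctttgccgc

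Such windows were matched for 8 of the 10 genes, and GATAA on either strand lay in those of 5 (Cpa3, Cma1, Mcpt4, Ms4a2 and Fcer1a). Of all 32851 windows of that length, 22.6% held it. That share counts windows and not genes, and Kit and Gata2 had 2 windows each. It began 45 bases before the start site in Cpa3, 102 in Mcpt4 and 194 in Cma1. In Ms4a2 it occurred 3 times, at 224, 37 and 10 bases. The windows of Kit, Hdc and Gata2 held none. TATAAA on the gene's own strand, the letters of a TATA box, began 31 bases before the start of Cpa3 and 32 before that of Mcpt4. It also began 125 bases before that of Fcer1a, and 7.59% of all windows held it. No TATAAA overlapped a GATAA in these windows. Tpsb2 and Tpsab1 had no entry. A match describes these letters only.

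Cpa3 (ENSMUSG00000001865) encodes carboxypeptidase A3, a granule enzyme shared by mast cells and basophils. Its level was 11.4, 67.6 and 87.5 TPM in vehicle replicates 1, 2 and 3, and 2.42, 58.3 and 0 TPM in CCl4 replicates 1, 2 and 3. Vehicle replicates 2 and 3 were the highest libraries, but CCl4 replicate 2 lay above vehicle replicate 1, so the groups overlapped. The difference, CCl4 minus vehicle, was -2.85 ± 1.41 (log2 ± SE, n = 3 per group, limma adjusted p = 1.00). limma called 0 of 13767 genes in skin at an adjusted p under 0.05, or 0.0%, and 288 genes (2.09%) had an unadjusted p under 0.05, none of the 6 members tested among them. Fitted over all 12 libraries together, limma called 1 gene in skin.

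Cma1 (ENSMUSG00000022225) encodes a chymase of connective tissue mast cells. It stood at 5.65, 52.2 and 137 TPM after vehicle and 2.09, 71.3 and 0.25 TPM after CCl4. Vehicle replicate 3 held the most of any library, and CCl4 replicate 2 exceeded the other two vehicle libraries. The difference was -2.48 ± 1.55 (limma adjusted p = 1.00). Of the 31-base stretches in Cma1 transcripts, 10.6% also occur in the predicted gene Gm48934, which was listed at 0 in all 12 libraries.

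Mcpt4 (ENSMUSG00000061068), the chymase that cleaves many extracellular substrates in mouse skin, was at 10.5, 58.8 and 68.7 TPM after vehicle and 4.76, 47.5 and 0 TPM after CCl4. Its libraries fell in the same order as those of Cpa3, from CCl4 replicate 3 at the bottom to vehicle replicate 3 at the top. The difference was -2.48 ± 1.33 (limma adjusted p = 1.00). Of its 31-base stretches 12.2% occur in other genes' transcripts, most of them in Cma2, which did not exceed 0.24 TPM in any library.

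Tpsb2 (ENSMUSG00000033825) encodes the mast cell tryptase mMCP-6. It was at 3.03, 32.7 and 66.2 TPM after vehicle and 2.83, 74.5 and 0 TPM after CCl4, so that the highest library of all belonged to the CCl4 group. The difference was -1.66 ± 1.57 (limma adjusted p = 1.00). Tpsab1 (ENSMUSG00000024173) encodes the related tryptase mMCP-7 and is classed by RefSeq as a transcribed pseudogene in the C57BL/6J reference. It reached 1.17 TPM in vehicle replicate 2 and 0.10 TPM in CCl4 replicate 1, and was listed at 0 in the other 4 skin libraries. Only 0.557% of the 31-base stretches of Tpsb2 occur in Tpsab1, so few stretches are shared.

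**Figure D2:**
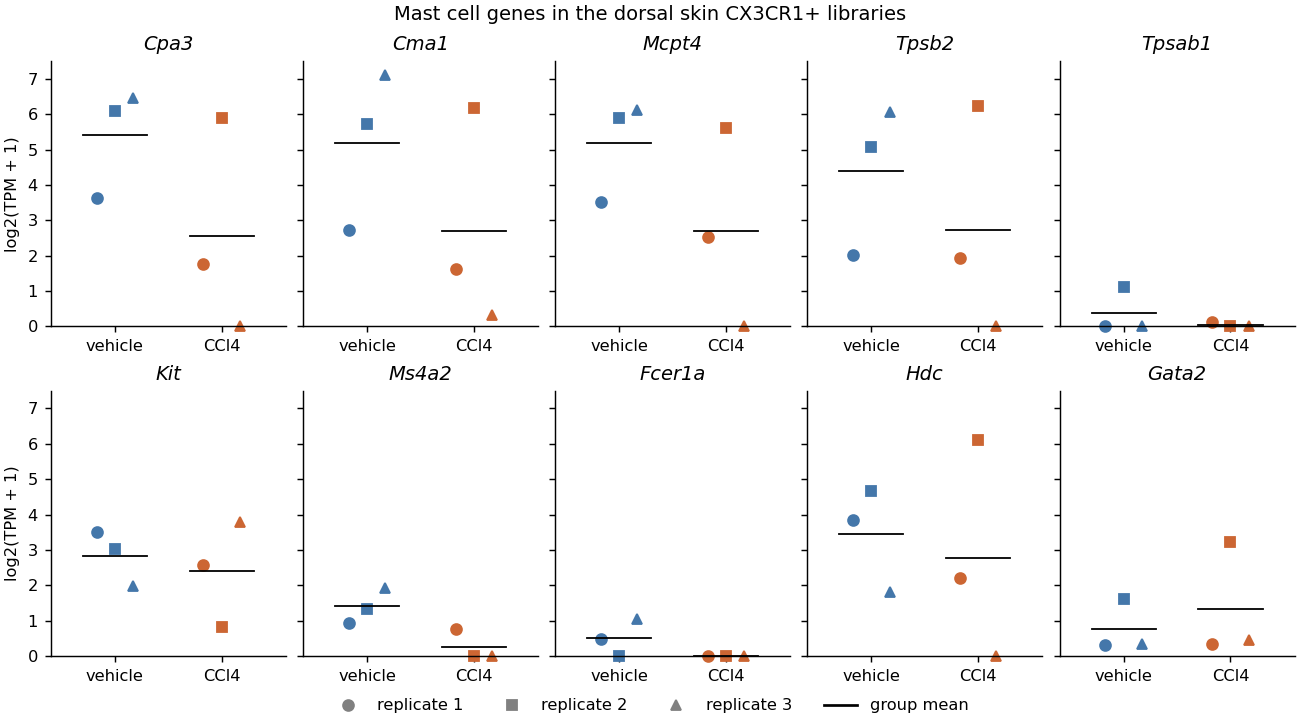
Level of each of the 10 genes, as log2(TPM + 1), in the 6 skin libraries, with blue for vehicle, orange for CCl4, the symbol giving the replicate and the bar the group mean. For the 4 proteases CCl4 replicate 2 lies among the higher vehicle libraries while CCl4 replicate 3 lies at or near 0, and Ms4a2 is the gene whose listed values do not overlap between groups.

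Among the proteases the order of levels was not fixed. TPM is scaled by length, so levels can be set beside each other within a library. In vehicle replicates 1 and 2 the order from high to low was Cpa3, Mcpt4, Cma1 and Tpsb2, and Tpsb2 held 9.9% and 15.5% of the summed level. In vehicle replicate 3 Cma1 led with 38.1% of the sum. In CCl4 replicate 2 Tpsb2 led with 29.6%, close to Cma1 at 28.3%. In CCl4 replicate 1, whose sum was 12.1 TPM, Mcpt4 led with 39.3%. Depth is unknown, so no counting error can be set on these shares.

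Of the proteases and the protease activator outside the 10 genes, the mucosal chymase genes were near absent. Mcpt1 was listed at 0 in all 12 libraries, and Mcpt2 in all but vehicle replicate 1 of skin, at 0.47 TPM. Tpsg1, the membrane-anchored gamma tryptase, followed the pattern of high and low libraries of the main proteases, with 1.21, 5.26 and 8.21 TPM after vehicle and 0.85, 5.74 and 0 TPM after CCl4 (-1.12 ± 0.84, limma adjusted p = 1.00). Ctsc, the dipeptidyl peptidase that activates granule proteases and is made by many immune cells, was at 618, 1037 and 591 TPM after vehicle and 483, 344 and 411 TPM after CCl4. Its groups did not overlap, and the difference of -0.82 ± 0.49 did not pass (limma adjusted p = 1.00). Among tested genes, 2.72% were lower without overlap. Gzmb, a protease of cytotoxic lymphocytes as well, was highest in the libraries numbered 1, at 46.7 TPM after vehicle and 71.7 TPM after CCl4. Of these 8 genes 3 were tested and 0 called, with a median difference of -1.12, against -0.05 for all genes tested.

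**Figure D3:**
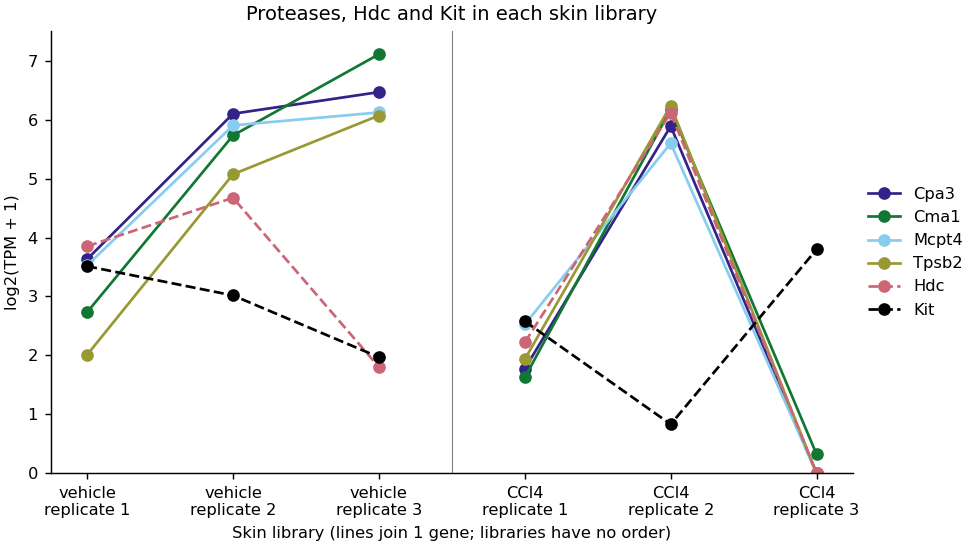
Level of the 4 granule proteases (solid lines) and of Hdc and Kit (dashed lines), as log2(TPM + 1), in each skin library; lines join values of 1 gene within a group and imply no order. The proteases are high in the same libraries and low in the same libraries, Hdc departs from them in vehicle replicate 3, and Kit has its highest level, 12.9 TPM, in the library where the proteases are lowest.

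The receptor genes did not share 1 pattern. Kit (ENSMUSG00000005672), the receptor tyrosine kinase for stem cell factor, was at 10.4, 7.10 and 2.92 TPM after vehicle and 4.98, 0.78 and 12.9 TPM after CCl4. Its highest library was CCl4 replicate 3, where Cpa3, Mcpt4 and Tpsb2 were listed at 0, and its lowest was CCl4 replicate 2, where they were high. The difference was -0.43 ± 0.87 (limma adjusted p = 1.00), and it was 0.36 ± 0.88 without CCl4 replicate 2. Markers of melanocytes, which express Kit, summed to 3.36 to 10.7 TPM after vehicle and to 3.97, 18.7 and 3.91 TPM after CCl4. In CCl4 replicate 3 Pmel and Tyrp1 were listed at 0 and Dct stood at 3.21 TPM. Their part in the Kit values was not tested.

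Ms4a2 (ENSMUSG00000024680), the beta chain of FcεRI, was the member whose listed values did not overlap between groups in skin. It was at 0.92, 1.53 and 2.82 TPM after vehicle and 0.71, 0 and 0 TPM after CCl4, so every CCl4 value lay below every vehicle value, by a margin of 0.92 against 0.71 TPM in the closest pair. These levels failed the filter on low TPM, and with depth unknown that pair cannot be ordered with any known precision. The difference was -1.15 on the log2(TPM + 1) scale (exact two-sided permutation p = 0.1, the smallest that 3 against 3 allow). Of all genes above 0 in a skin library, 1.87% were lower without overlap. Transcripts of Ms4a2 share 3.76% of their 31-base stretches with Ms4a4b, a gene of T cells, which was at 8.64, 34.1 and 16.3 TPM after vehicle and 6.47, 5.08 and 0 TPM after CCl4. Ms4a4b groups did not overlap either, and whether reads of 1 gene were counted for the other was not tested.

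Fcer1a (ENSMUSG00000005339), the IgE-binding alpha chain, was near the lower limit. It was at 0.41, 0 and 1.06 TPM after vehicle and was listed at 0 in all 3 CCl4 libraries (exact two-sided permutation p = 0.4). Since 1 vehicle library was also at 0, the groups were not separate. The gamma chain Fcer1g, which macrophages and other myeloid cells share with mast cells, was abundant instead, at 2496, 2196 and 4869 TPM after vehicle and 2498, 1455 and 1249 TPM after CCl4 (-0.85 ± 0.52, limma adjusted p = 1.00).

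Hdc (ENSMUSG00000027360) encodes histidine decarboxylase, which makes histamine. It was at 13.4, 24.5 and 2.49 TPM after vehicle and 3.66, 68.4 and 0 TPM after CCl4. It shared the high level of CCl4 replicate 2 and the 0 of CCl4 replicate 3 with the proteases, but vehicle replicate 3, the richest library for Cpa3 and Cma1, held little Hdc. The difference was -0.66 ± 1.43 (limma adjusted p = 1.00), and it was 0.73 ± 1.31 without CCl4 replicate 3. Markers of neutrophils, which can also express Hdc, summed to 580 TPM in CCl4 replicate 3, mostly S100a8 and S100a9, and to 8.52 to 85.8 TPM in the other 5 skin libraries. Retnlg, Ly6g and Mpo were at 0.08, 0 and 0.20 TPM in CCl4 replicate 3. Their part in the Hdc values was not tested.

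Gata2 (ENSMUSG00000015053), a transcription factor needed for mast cell and basophil identity, was at 0.25, 2.07 and 0.26 TPM after vehicle and 0.27, 8.39 and 0.36 TPM after CCl4. CCl4 replicate 2 stood above all others, and the remaining CCl4 libraries were level with the low vehicle pair. The difference was 0.58 (exact two-sided permutation p = 0.5), and -0.36 without CCl4 replicate 2. That library also held the endothelial marker sum of 227 TPM, with Pecam1 at 58.3 TPM and Emcn at 137 TPM. The part of endothelial RNA in the Gata2 value was not tested.

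**Figure D4:**
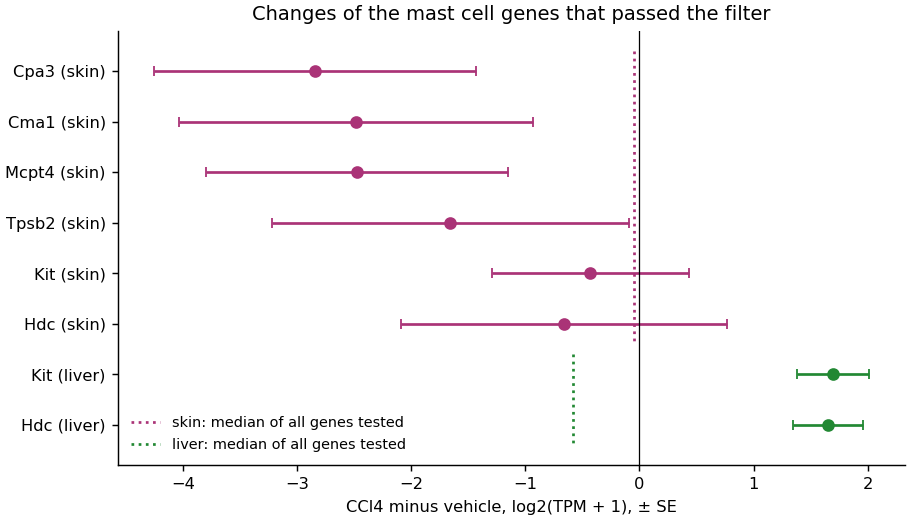
Difference between CCl4 and vehicle in log2(TPM + 1), with its SE (n = 3 per group), for the genes that passed the filter on low TPM in skin (6 genes) and liver (2 genes); dotted lines mark the median of all genes tested in that tissue. The intervals of the skin genes are wide, and Kit and Hdc in liver lie above 0.

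Single libraries set the size of the skin differences. Without CCl4 replicate 2, the protease genes differed by -4.51 (Cpa3), -4.22 (Cma1), -3.92 (Mcpt4) and -3.42 (Tpsb2). Without CCl4 replicate 3, the library with few macrophage transcripts, the same genes differed by -1.57, -1.29, -1.12 and -0.30. Without both libraries numbered 1 the values were -3.34, -3.17, -3.21 and -2.45. None passed in any of these fits, whose adjusted p in limma was 1.00 throughout (0.594 to 1.00 over all 17 alternatives for Cpa3). Of the 10 genes 6 passed the filter on low TPM (at least 1 TPM in at least 3 of the 6 libraries), and their median difference was -2.07, against -0.05 for all 13767 genes tested. Markers of other cells had medians as low: -2.77 for macrophages and monocytes, -2.33 for fibroblasts and -2.10 for Langerhans and dendritic cells, with 0 genes called in each list. Their part in the values of the mast cell genes was not tested.

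Markers of neighbouring granulocytes were low or scattered. Among 5 basophil markers, Mcpt8, the basophil protease, stood at 21.4 TPM in vehicle replicate 3 and was listed at 0 in the other 5 skin libraries. Prss34 did not exceed 0.13 TPM. The whole list summed to 60.1 to 76.1 TPM after vehicle and to 102, 24.5 and 15.0 TPM after CCl4, mostly from Cd69, which T cells share. The 5 eosinophil markers summed to 1.48 to 3.93 TPM after vehicle and to 2.21, 6.04 and 0 TPM after CCl4, and Epx was listed at 0 throughout. Their part in the levels of Cpa3, Hdc and the IgE receptor genes was not tested.

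Of 13 genes of other mast cell surface receptors 10 were tested in skin and 0 called, with a median difference of -0.93. The itch receptor genes Mrgprb1 and Mrgprb2, named here after their values were seen, were low but present in most libraries. Mrgprb2, which senses basic peptides and drugs, was at 0.45, 0.96 and 1.45 TPM after vehicle and 0.79, 1.38 and 0 TPM after CCl4. Mrgprb1 was at 1.49, 3.53 and 2.63 TPM after vehicle and 0.38, 2.77 and 0 TPM after CCl4 (-0.99 ± 0.61, limma adjusted p = 1.00). Cysltr1, a cysteinyl leukotriene receptor, was at 6.81, 17.5 and 17.8 TPM after vehicle and 4.98, 7.10 and 0 TPM after CCl4 (-1.94 ± 0.90, limma adjusted p = 1.00). Il1rl1, the receptor for interleukin 33 on mast cells, type 2 lymphoid cells and some regulatory T cells, was at 423 TPM in CCl4 replicate 3 and at 0.01 to 15.5 TPM in the other skin libraries. It was therefore most abundant where the granule proteases were at or near 0. Adora3, an adenosine receptor gene, was highest in the libraries numbered 1, at 20.9 TPM after vehicle and 19.1 TPM after CCl4. The cytokine receptor subunits Csf2rb and Csf2rb2 differed by -1.96 ± 1.46 and -1.02 ± 1.28, and the tetraspanin Cd63 by 0.63 ± 0.65 (limma adjusted p = 1.00 each).

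Genes of IgE receptor signalling were all 12 tested in skin, and 0 were called, with a median of -1.09. Most are shared with other leukocytes. The kinase Syk was at 20.5, 51.0 and 3.48 TPM after vehicle and 15.2, 3.82 and 0.10 TPM after CCl4 (-1.96 ± 1.17). The kinase Lyn was lowest in CCl4 replicate 3 too, at 3.44 TPM (-1.76 ± 1.26). The adaptor Lat, also of T cells, stayed between 14.6 and 142 TPM in all 6 libraries (0.25 ± 0.86), and its partner Lat2 differed by -1.15 ± 0.78 (limma adjusted p = 1.00 for each of these genes).

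Of 14 genes of amine and lipid mediators 12 were tested and 0 called, with a median of -0.70. Alox5ap, the activator of 5-lipoxygenase in leukotriene synthesis, was at 109, 224 and 243 TPM after vehicle and 65.8, 83.5 and 5.48 TPM after CCl4. Its groups did not overlap (-2.45 ± 0.96, limma adjusted p = 1.00). Its enzyme Alox5 was separate in the same direction (-1.75 ± 0.81). For comparison, 2.72% of all genes tested in skin were lower without overlap. Ptgs1, a cyclooxygenase, was separate in the other direction, at 7.49, 18.7 and 11.9 TPM after vehicle and 29.0, 32.1 and 37.8 TPM after CCl4 (1.39 ± 0.61, limma adjusted p = 1.00). Among tested genes 2.56% were higher without overlap. The prostaglandin D synthase gene Hpgds and the inducible cyclooxygenase Ptgs2 differed by -0.61 ± 0.68 and -0.85 ± 1.55, the granule proteoglycan core Srgn by -0.29 ± 0.76, and Unc13d, which primes granules for release, by -0.16 ± 0.68 (limma adjusted p = 1.00 for these 4 genes and Alox5). Slc18a2, the vesicle transporter for histamine and other amines, and Tph1, which starts serotonin synthesis, did not exceed 2.11 and 1.71 TPM in skin.

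Of 9 transcription factor genes 5 were tested in skin, with 0 called and a median of -0.38. Mitf, which drives Kit and protease genes in mast cells and melanocytes, was between 0.20 and 4.03 TPM, and Gata1 was at 0.30 TPM or less. Stat5a and Stat5b, which act below KIT, differed by -0.95 ± 1.30 and -0.38 ± 0.90, and Bhlhe40, Lmo4 and Meis1 by 0.08 ± 0.81, -0.73 ± 0.65 and 0.24 ± 0.70. Of 9 genes for ligands and histamine receptors 4 were tested, with 0 called and a median of 0.60. Kitl, the ligand of KIT made by fibroblasts, endothelium and keratinocytes, was at 3.37, 19.4 and 0.56 TPM after vehicle and 5.39, 62.5 and 5.45 TPM after CCl4 (1.41 ± 1.17). Il33 differed by 1.03 ± 0.93 and Tslp by 0.00 ± 0.79 (limma adjusted p = 1.00 for each gene tested here). Il4, a cytokine of mast cells, basophils and T cells, was at 0.92, 4.04 and 5.06 TPM after vehicle and 0, 0.56 and 0 TPM after CCl4. It failed the filter. Its listed values did not overlap, as for 1.87% of all genes above 0 in a skin library, which were lower without overlap. With depth unknown, the precision of the closest pair, 0.92 against 0.56 TPM, is unknown. The histamine receptor gene Hrh1 peaked at 8.76 TPM in CCl4 replicate 2.

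Genes other than the members were ranked by their likeness to the mast cell genes over the 6 skin libraries. Members were left out, so the ranking cannot show whether mast cell genes were the most alike. A floor of 5 TPM on the mean also left out low mast cell genes such as Tpsg1 (means of 4.89 TPM after vehicle and 2.2 TPM after CCl4). Likeness was Pearson's r between a gene's log2(TPM + 1) and the mean of the 6 tested members, each centred and scaled, among 8407 named genes with a mean of at least 5 TPM. It is a description over 6 libraries that differ in cell content. The 8 closest apart from the members were Sectm1a (r = 0.995), Calml4 (0.991), Pqlc3 (0.984), Ccl19 (0.980), Fkbp1b (0.980), Tmem176b (0.977), Mmp27 (0.974) and Gstt3 (0.972). Without CCl4 replicates 3 and 1, the libraries farthest from the median of that mean, their r was 0.806 to 0.987. Ccl19, the chemokine that draws cells bearing CCR7, was at 22.6, 148 and 133 TPM after vehicle and 3.57, 301 and 0.63 TPM after CCl4, again high in CCl4 replicate 2. Among the members themselves r with that mean, of which each is a part, was 0.931 to 0.990 for the 4 proteases, 0.756 for Hdc and -0.585 for Kit, and 0.191 for Hdc without those libraries.

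In liver, 2 of the 10 genes rose with CCl4 while the granule proteases stayed at or near 0. Kit was at 0.74, 0.45 and 1.29 TPM after vehicle and 5.06, 8.26 and 2.51 TPM after CCl4. Every CCl4 library was above every vehicle library, and Kit rose by 1.70 ± 0.31 on the log2(TPM + 1) scale (limma adjusted p = 0.00111). Hdc was at 0.97, 0.36 and 0.97 TPM after vehicle and 4.31, 8.0 and 2.43 TPM after CCl4. It rose by 1.65 ± 0.31 (limma adjusted p = 0.00118), again without overlap and with replicate 2 highest. For comparison, limma called 61.4% of the 10385 liver genes it tested (10.3% up and 51.1% down), and the median change was -0.59. Among them 11.4% were higher without overlap. The split depended on the scaling: limma called 1073 genes up and 5304 down as deposited, 1841 up and 2720 down under median-ratio scaling, 1778 up and 2574 down under quantile normalization, and 6515 up and 494 down without mitochondrial and top genes. Hdc passed the filter on low TPM through its CCl4 libraries alone, so only a rise of it could be tested. Kit reached 1 TPM in only 1 vehicle library, so it too needed its CCl4 libraries to pass the filter. Both calls held under median-ratio scaling, quantile normalization and rescaling without mitochondrial and top genes, with rises of 2.08, 1.96 and 3.37 for Kit and 2.02, 1.90 and 3.32 for Hdc, where the median of all genes was -0.11, -0.15 and 0.77. Both were lost when all 12 libraries shared 1 fit (limma adjusted p = 0.0977 for Kit and 0.344 for Hdc).

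The remaining genes failed the filter in liver. Cpa3 was listed at 0 in the 3 vehicle libraries and at 0.12, 0.31 and 0 TPM after CCl4. Cma1 and Tpsb2 were at most 0.24 and 0.13 TPM, and Mcpt4 was listed at 0 in all 6. Ms4a2, Fcer1a and Tpsab1 reached 0.04, 0.18 and 0.08 TPM at most, all with CCl4. Gata2 was at 0.04, 0.07 and 0.06 TPM after vehicle and 0.27, 0.69 and 0.21 TPM after CCl4, without overlap of the listed values (exact two-sided permutation p = 0.1). All 6 are under 1 TPM, and their precision is unknown. Of all genes above 0 in a liver library, 15.1% were higher without overlap.

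**Figure D5:**
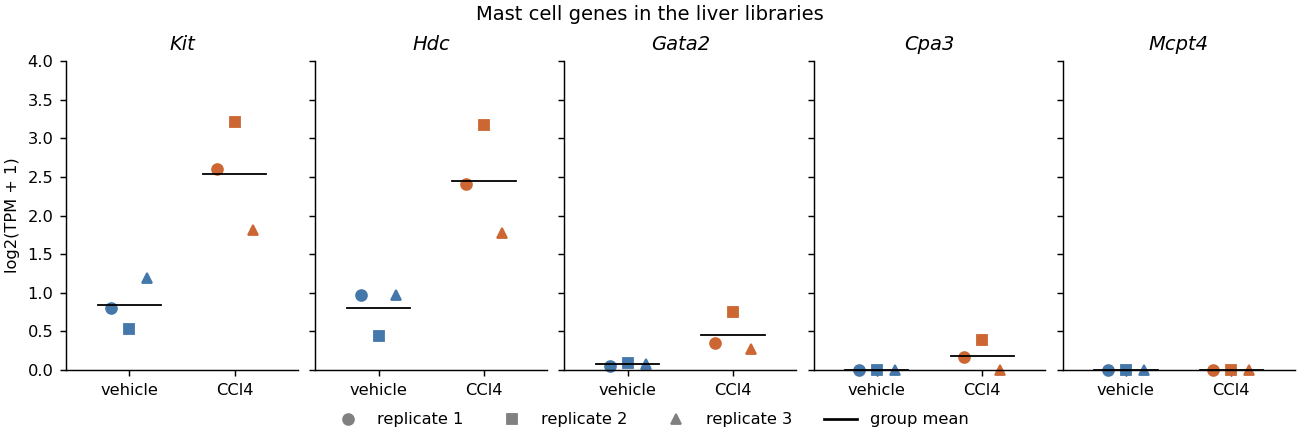
Level of Kit, Hdc, Gata2, Cpa3 and Mcpt4, as log2(TPM + 1), in the 6 liver libraries, with blue for vehicle, orange for CCl4, the symbol giving the replicate and the bar the group mean. Kit and Hdc are higher in every CCl4 library than in any vehicle library, Gata2 reaches at most 0.69 TPM and Cpa3 at most 0.31 TPM, and Mcpt4 is listed at 0.

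Markers of other cell types moved with Kit and Hdc in liver. All 5 endothelial markers rose, where limma called 10.3% of all genes tested in liver up. Of these markers Tie1 and Emcn were at most 0.82 and 0.61 TPM after vehicle, so the filter admitted them only as high with CCl4. The endothelial sum was 6.75 to 7.84 TPM after vehicle and 60.4, 106 and 38.0 TPM after CCl4. It was highest in replicate 2 and lowest in replicate 3, as for Kit. Of 5 neutrophil markers 3 were tested and called higher, each of them at most 0.34 TPM after vehicle, so that the filter admitted them only as high with CCl4. Their list summed to 0 to 0.65 TPM after vehicle and to 106, 343 and 31.6 TPM after CCl4, again in the order of Hdc. The macrophage and monocyte markers Csf1r, Adgre1, Mrc1, C1qa, C1qb and Lyz2 rose, Lyz2 by 4.11 ± 0.46 (limma adjusted p = 8.13e-05). The fibroblast markers Col1a1, Col1a2, Col3a1, Dcn and Lum rose as well, all but Dcn under 1 TPM in every vehicle library. After CCl4 the fibroblast list summed to 139, 165 and 71.5 TPM, and the macrophage and monocyte list to 298, 478 and 130 TPM. The T and natural killer cell list summed to 2.61, 9.0 and 1.55 TPM. The order of replicates was thus not particular to endothelial and neutrophil markers. Red blood cell markers summed to 45.9 to 65.4 TPM after vehicle, most of it Alas2 (44.13, 55.55 and 47.09 TPM). They summed to 867 TPM in CCl4 replicate 2, where Kit and Hdc were highest, and to 14.9 and 11.6 TPM in the other CCl4 libraries. Those lower sums followed Alas2, which fell by 2.68 ± 0.28 (limma adjusted p = 5.20e-05). The globin genes Hba-a2 and Hbb-bs overlapped between groups and did not pass (limma adjusted p = 0.145 and 0.195). The melanocyte sum was 1.86 to 2.80 TPM after vehicle and 0.22 to 0.78 TPM after CCl4. Mcpt8 and Prss34, the defining basophil proteases, were at most 0.06 TPM. The part of these cells in the rise of Kit and Hdc was not tested.

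The other pathway genes were mixed in liver. Few passed the filter, and several of those that rose were under 1 TPM in every vehicle library. These were Csf2rb, Fyn, Lcp2, Inpp5d, Alox5ap and Il33, as well as Hdc. The markers S100a8, S100a9, Retnlg, Tie1, Emcn, Col1a1, Col1a2, Col3a1 and Lum were under it too. Such genes entered the test only through their CCl4 libraries. Kit, Cd63 and Ptgs1 needed those libraries too, reaching 1 TPM in only 1 vehicle library each (1.29, 1.05 and 1.1 TPM). The direction of all these genes, and the counts of genes that rose, are in part set by the filter. Of all genes tested in liver, limma called 10.3% up. Of 13 receptor genes 3 were tested: Fcer1g rose by 2.63 ± 0.34, Cd63 by 3.61 ± 0.21 and Csf2rb by 1.25 ± 0.20 (limma adjusted p = 0.000170, 9.60e-07 and 0.000560). Of 12 signalling genes 6 were tested, of which Fcer1g, Fyn, Lcp2 and Inpp5d rose, while Lyn (0.23 ± 0.27) and Plcg1 (-0.51 ± 0.22) did not pass. Ctsc, the protease activator, did not pass either (-0.28 ± 0.27, limma adjusted p = 0.385). Of the 14 mediator genes Srgn rose by 3.60 ± 0.43, Alox5ap by 1.77 ± 0.42 and Ptgs1 by 1.91 ± 0.31. Il33, the ligand gene tested, rose by 1.00 ± 0.18. All of these rises passed under the 3 other scalings as well.

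The falls in liver depended more on the scaling, in a table whose median gene changed by -0.59. Maob and Hnmt, which degrade amines and histamine and are expressed by hepatocytes, fell by 2.52 ± 0.45 and 1.5 ± 0.38, and without mitochondrial and top genes they stood at -0.99 and -0.03 and did not pass. The heparin-modifying Ndst2 was at -0.59 ± 0.20, the same as the median gene (limma adjusted p = 0.0262), and turned to 0.82 under that rescaling (adjusted p = 0.0143). Stat5b, the 1 called gene of 5 transcription factors tested, was at -1.25 ± 0.21 and turned to 0.16. The 5 hepatocyte markers fell, where limma called 51.1% of all genes tested down. Among them Alb fell by 1.75 ± 0.29 (limma adjusted p = 0.000660), and stood at -0.13 and did not pass under that rescaling. Ttr stood at -0.40 under that rescaling and at -0.17 under quantile normalization, and passed under neither (limma adjusted p = 0.132 and 0.363). Apoa1, Cyp2e1 and Serpina1c stayed called lower under the 3 other scalings. Maob, Stat5b and Alb stayed called lower under both median-ratio scaling and quantile normalization, Stat5b at -0.72 and -0.73. Hnmt stayed called under median-ratio scaling only (limma adjusted p = 0.0489, against 0.0966 under quantile normalization), and Ndst2 under neither.

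The effects of CCl4 in skin and liver were compared for Kit and Hdc, the 2 members tested in both. The skin effect minus the liver effect was -2.13 ± 0.94 for Kit (limma adjusted p = 0.230) and -2.32 ± 1.66 for Hdc (adjusted p = 0.447), so neither difference passed, nor did it under the alternatives (0.0575 to 0.489 for Kit and 0.103 to 0.779 for Hdc). limma called 20 of 9255 genes, or 0.216%. Tissue, strain and library method differ together here and cannot be told apart.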

How the data were processed

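The authors deposited 1 table of TPM for 57180 genes in 12 libraries. Per the submitters' processing notes, fastp, HISAT2, StringTie and RSEM were used with the build GRCm39; which tool did what, and in which version, is not stated in the labels. TPM keeps no depth, so counting error is unknown, and levels are relative within a library. Because 0 may stand for a failed estimate, such genes are called listed at 0. Symbols were matched for 51884 of the IDs; 66 that repeated a symbol were left unnamed. No 2 columns were identical.

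Values were analysed as log2(TPM + 1) with limma 3.58.1 in R 4.3.3 (lmFit, eBayes with trend, two-sided, Benjamini-Hochberg over all genes tested, called at an adjusted p under 0.05), in each tissue alone, over genes with at least 1 TPM in at least 3 of the 6 libraries. Fold changes on this scale understate changes of low genes. Where the filter failed, an exact permutation test was used, whose smallest p is 0.1. The scripts were tested on simulated data. Members and lists (6 by function, 14 of cell type markers) were chosen with earlier results of these data known. The genes named are the 10 members, list genes that were called, up to 4 others per list with the highest skin mean, and the 8 most alike in skin; Mcpt1, Mcpt2, Slc18a2, Tph1, Mitf, Gata1, Mrgprb1, Mrgprb2, Epx, Prss34 and the genes that share sequence with a member were added after their values were seen. Shared sequence was counted in GENCODE M21 transcripts. Promoter sequences are from RefSeq (GRCm38.p6), another build than the table's. The result of 1 marker gene in liver is not reported here.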

Additional observations from a re-analysis of the deposited data

How the results depend on the processing

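Alternatives covered the pseudocount (0.1 and 5), the filter (none and 5 TPM), 3 other scalings, robust eBayes, a fit over all 12 libraries, a replicate block, leaving out each library, and leaving out both skin libraries numbered 1. All 4 granule proteases stayed lower with CCl4 in skin, and uncalled, in all 17. Kit and Hdc turned up in skin without CCl4 replicate 2 (0.36) and without CCl4 replicate 3 (0.73), and ranged from -1.13 to 0.36 and from -2.33 to 0.73 when 1 library was left out. In liver both lost their calls in the fit over all 12 libraries only. For Hdc no value could be had at a filter of 5 TPM or without any 1 CCl4 library, and for Kit none at 5 TPM, since they then failed the filter. The count of genes called in skin was 0, and 1 in the fit over all 12 libraries. In liver it was 6377, and 4084 with a filter at 5 TPM, 1736 in the fit over all 12, and 4454 to 7053 when 1 library was left out. The 20 genes whose effects differed between tissues became 176 with a pseudocount of 0.1, 66 without a filter, 11 with a filter at 5 TPM, 206 under median-ratio scaling, 76 under quantile normalization, 493 without mitochondrial and top genes, and 2 to 424 when 1 library was left out. With the replicate number as a block it was 345. Same-numbered skin libraries correlated in their deviations from the group means at 0.587, 0.0923 and 0.350, and other skin pairs at -0.509 to 0.158. Same-numbered liver libraries correlated at -0.0381, 0.0796 and 0.0683. The main fits did not take the numbers as pairs, and the skin values do not settle whether they are. The numbers are those of the sample titles; the library names carry another number for 4 of the 12 libraries. The block changed no call of the 10 genes. The cause of these changes was not tested. Depth is unknown, so the precision of levels under 1 TPM is unknown too.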
